A study of Mus musculus with 40 samples.

Results

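The genes described here are 10 genes of the p53 and growth-arrest stress programs of the mouse, the transcription factor p53 itself (Trp53), its ubiquitin ligase Mdm2, and the stress-responsive genes Ccng1, Trp53inp1, Sesn2, Bbc3, Ddit4, Gadd45a, Gadd45b and Gadd45g. They were chosen by name, with earlier results of these data known. Their probes were found through the accessions that the array designs give, through probes of identical sequence on another design and through gene tables of the study. Probes were found for 9 of the 10 genes. Ccng1, which codes for cyclin G1, is named only. The 9 genes had 12 probes of 42006 gene probes on one design, 10 of 21052 on another and 12 of 41006 on the remaining one, and each probe of 60 bases has the same sequence on every design that carries it. A gene is given by its probe of highest mean intensity, and its other probe, where it has one, is given beside it.

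In 2 time courses, ES cells of the line ZHBTc4, in which both Pou5f1 alleles are disrupted and a Pou5f1 transgene is shut off by tetracycline (Tet), were measured over the first 24 hr of Tet, with 2 arrays at each of 5 times (0, 3, 6, 12, 24 hr; the early arrays), and in steps of 24 hr up to 120 hr, with 3 arrays at each of 6 times (the late arrays). The 0 hr arrays are the same cells with the transgene on. In a further experiment, a clone with an episomal Nanog transgene and its parental line MG1.19 (both strain 129Sv), and a clone with an integrated Nanog transgene and the line ES 129.3 without it (both 129SvEv-Tac), were kept for 3 days with LIF, without LIF, or with LIF and 1 µM retinoic acid (RA), with 1 array for each line and medium (the media arrays). Every sample was labeled with Cy3 and hybridized against a Universal Mouse Reference RNA in Cy5, and values are log2(Cy3/Cy5) unless Cy3 alone is named. The ZHBTc4 cells of the early arrays had been passaged on gelatin, which the methods describe as removing feeders, and were kept with LIF. The lines of the media arrays had also been passaged on gelatin. For the late arrays the methods refer to RNA from an earlier experiment. Each Nanog line is 1 clone. The study's methods name another line than ES 129.3 as the one that received the integrated transgene, so that transgene and line cannot be told apart in a difference between this clone and ES 129.3. The labels do not say whether arrays of a time point came from separate cultures, so that p-values measure only the spread between these arrays, which may be technical. In a bulk RNA sample fewer cells of a type and less RNA per cell cannot be told apart.

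Median Cy3 signals of the gene probes were 595 to 672 per array on the early, 596 to 776 on the late and 531 to 662 on the media arrays, over local backgrounds of 365 to 390. On the late arrays, 6 of 8 ES cell markers fell and 8 of 9 trophoblast markers rose, whereas 1 of 4 primitive endoderm markers and 1 of 6 markers of feeder fibroblasts rose. Of LIF response markers 2 of 2 fell there, with a median change of -1.27 at 24 hr, and of RA response markers 2 of 3 rose. The early arrays gave 1 of 2 and 1 of 3 for these markers, and 1 and 0 in Cy3 alone. On the early arrays, 2 of 8 ES cell markers fell and 2 of 9 trophoblast markers rose, and in Cy3 alone 3 and 5 did. A gene was called where its adjusted p was under 0.05 and its change 1.5-fold or more (limma, Benjamini-Hochberg over all gene probes), and over all times or media by the moderated F test with the same limits on its largest change. In shares of all genes called, each probe without a symbol counts as a gene of its own. Such probes numbered 25788 on the early, 9819 on the late and 24335 on the media arrays. Genes with a symbol numbered 13258, 10917 and 13380, and shares among them alone can differ.

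p53 is a transcription factor that is kept at a low level by Mdm2, which marks it for degradation and is itself a p53 target, so that both form a feedback loop. After DNA damage or other stress p53 raises genes that stop the cell cycle, repair DNA or start cell death. The Gadd45 genes code for small related proteins that bind cell cycle and repair proteins and activate stress kinases, and Gadd45a is the classical p53 target among them. Ddit4 and Sesn2 also answer to shortage of oxygen or nutrients and restrain the kinase mTOR.

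The upstream sequences of the Gadd45 genes are shown because these related genes moved in different directions after Tet. They are the 250 bases before the RefSeq start (build GRCm38.p6), read 5′ to 3′ on the strand of the gene, with the octamer ATGCAAAT or its reverse complement ATTTGCAT, the letters that POU factors are known to bind, in capitals.
Gadd45a promoter, chr6:67037408-67037657, minus strand: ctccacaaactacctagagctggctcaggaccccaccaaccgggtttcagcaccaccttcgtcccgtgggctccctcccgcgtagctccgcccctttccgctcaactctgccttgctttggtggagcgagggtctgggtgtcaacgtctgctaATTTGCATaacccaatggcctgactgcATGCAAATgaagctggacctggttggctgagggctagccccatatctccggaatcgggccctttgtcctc
Gadd45b promoter, chr10:80929841-80930090, plus strand: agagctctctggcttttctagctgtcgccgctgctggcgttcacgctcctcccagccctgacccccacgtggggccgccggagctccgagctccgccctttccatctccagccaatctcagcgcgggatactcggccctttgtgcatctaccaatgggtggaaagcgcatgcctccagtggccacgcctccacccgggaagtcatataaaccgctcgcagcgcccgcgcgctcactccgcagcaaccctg
Gadd45g promoter, chr13:51846425-51846674, plus strand: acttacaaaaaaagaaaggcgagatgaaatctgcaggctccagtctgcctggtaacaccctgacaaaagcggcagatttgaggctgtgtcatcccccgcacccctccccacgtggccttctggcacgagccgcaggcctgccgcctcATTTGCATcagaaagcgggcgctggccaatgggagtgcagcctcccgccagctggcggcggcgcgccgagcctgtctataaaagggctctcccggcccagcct
The Gadd45a stretch held the octamer at 97 and 70 bases before the start, once in each orientation, and the Gadd45g stretch held it at 103 bases. Across 27025 genes with such stretches, 1.81% held the octamer on either strand, and of the 10 genes, all but Trp53inp1 having a stretch in the table, these 2 held it. The octamer was thus found in a gene that fell and in a gene that rose. The shorter motif CCAAT, counted on either strand, was in the stretches of all 9 genes that have one, Ccng1 included, where 37.5% of all genes held it, and it did not overlap with the octamers printed here. Both motifs were chosen after the sequences were seen. A match of letters is a description of the sequence and shows no binding.

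On the late arrays the Gadd45 genes parted. Gadd45b and Gadd45g, which in many tissues come up during differentiation and cytokine signaling, rose at all 5 times, and Gadd45a fell at all 5.

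Gadd45b was at -2.46, -2.50 and -2.70 on the 0 hr arrays and at 0.16, 0.14 and 0.21 at 24 hr. At 48 hr its values were 1.20, 1.34 and 1.38, and from 72 to 120 hr all arrays lay between 1.01 and 1.36. No array after Tet overlapped with those of 0 hr, and in the order of the means the groups of 48, 72, 120 and 96 hr each overlapped with the next. The change was 2.73 ± 0.07 (SE) at 24 hr and 3.86 ± 0.07 at 48 hr, which is 14.5-fold (adjusted p = 1.4e-13 and 1e-15). It was the largest rise among the 9 genes. The 0 hr Cy3 signal of Gadd45b was low, 844 in the mean, where 95% of the negative controls stayed under 627 to 653. It exceeded that level on 18 of 18 late arrays. Over the 29 settings tried, the main one included, the rise ranged from 1.87 to 3.01 at 24 hr and from 2.91 to 4.08 at 48 hr, both lowest without background subtraction.

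Gadd45g was at -1.92, -1.91 and -2.07 at 0 hr and at -0.40, -0.36 and -0.16 at 24 hr. At 48 hr only 1 array gave a value (0.60), since the spots of the other 2 had been called outliers by the scanner software. At 120 hr the values were 1.31, 1.13 and 1.15. No array after Tet overlapped with those of 0 hr. The change was 1.66 ± 0.08 at 24 hr, 2.72 ± 0.08 by 72 hr and 3.16 ± 0.08 by 120 hr (adjusted p = 5.19e-10, 4.46e-13 and 3.71e-14), the last being 8.96-fold and ranging from 2.66 to 3.44 over the settings. Against 24 hr in place of 0 hr, a comparison added after seeing the data, 5 of the 9 genes were called at 48 hr, where 3.39% of all genes were, and Gadd45b was higher by 1.13 ± 0.07 and Gadd45g by 0.90 ± 0.11. All tests of Gadd45g at 48 hr rest on that 1 array, which is assumed to vary like those of the other times.

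Gadd45a was at 0.31, 0.36 and 0.31 at 0 hr, at -0.43, -0.44 and -0.41 at 24 hr, and by 48 hr it had come to -1.88, -1.91 and -1.92. Its lowest values were at 96 hr (-2.33, -2.41 and -2.41), which overlapped with those at 72 hr, and at 120 hr it stood at -1.93, -1.96 and -1.99, above every array of 72 and 96 hr. The change was -0.75 ± 0.04 at 24 hr and -2.71 ± 0.04 at 96 hr, a 6.53-fold fall (adjusted p = 1.68e-09 and 4.37e-17), the latter ranging from -3.01 to -1.94 over the settings. Its Cy3 signal, 4220 at the highest and 724 at the lowest, exceeded that of 95% of the negative controls on 18 of 18 arrays.

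**Figure D1:**
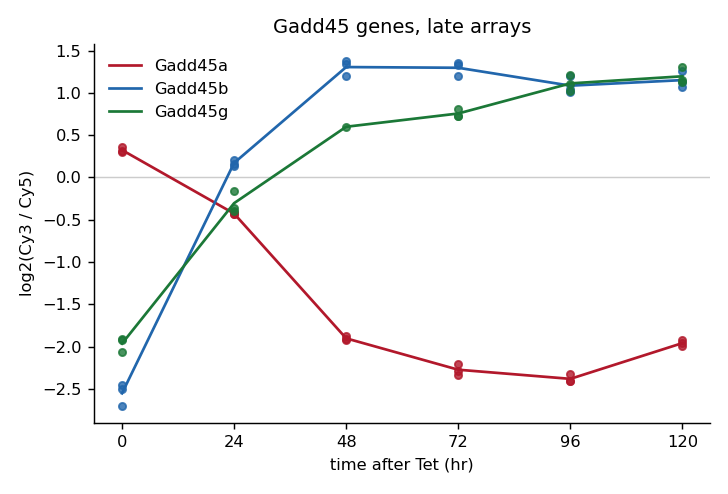
log2(Cy3/Cy5) of Gadd45a, Gadd45b and Gadd45g on the late arrays against the time after Tet in hr, with points for single arrays and lines through the means. Gadd45b and Gadd45g start at -2.70 to -1.91 and end at 1.07 to 1.31, whereas Gadd45a starts at 0.31 to 0.36 and ends at -1.99 to -1.93.

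The genes whose values over the 18 late arrays were most like those of Gadd45b, among 3759 other called genes with a symbol, were Tfap2c, a transcription factor of the trophoblast (Pearson r = 0.978), Utp6 (r = 0.977) and Efnb2 (r = 0.976). For Gadd45a they were Zfp219 (r = 0.988), Bcas3 (r = 0.988) and Ooep (r = 0.987). These values are descriptions over arrays that all 6 genes share.

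Over the late times, all 9 genes passed the F test with a change of at least 1.5-fold, 4 with their largest change upwards and 5 downwards, where 24.5% of all 20710 genes did so, 14.2% upwards and 10.4% downwards. Those that rose were Gadd45b, Gadd45g, Mdm2 and Bbc3. Among the 10917 genes with a symbol on these arrays the share called was higher, with at least 3759 called. At 24 hr, 6 of the 9 were called against 7.57% of all genes, 2 as higher (3.95% of all genes) and 4 as lower (3.62%). At 48 hr, 5 were called (10.2% of all genes), then 4 at 72 hr (14.3%), 7 at 96 hr (17.8%) and 8 by 120 hr (20.6%). The median change of the 9 genes lay between -0.44 and -0.23 at the 5 times, where that of all genes lay between -0.01 and 0.01.

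Among the genes that code for brakes on growth, Sesn2, whose product holds back mTOR when amino acids are short, was at 1.70, 1.89 and 1.84 at 0 hr and at 0.49, 0.87 and 0.51 at 24 hr. From 48 to 120 hr its 12 arrays lay between -0.03 and 0.55. The groups after Tet did not overlap with 0 hr, and among the times from 48 hr on they overlapped with each other. The changes were -1.19 ± 0.15 at 24 hr and -1.56 ± 0.15 at 48 hr (adjusted p = 1.54e-05 and 4.79e-07), and the 5 times ranged from 2.27-fold to 2.95-fold lower.

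Ddit4, also known as Redd1, which blocks mTOR through the Tsc complex, was at -1.40, -1.31 and -1.52 at 0 hr and at -1.92, -2.09 and -2.08 at 120 hr. Every array after Tet lay below every array of 0 hr. The change was small, -0.23 ± 0.07 at 48 hr and -0.62 ± 0.07 at 120 hr (adjusted p = 0.0145 and 7.16e-07), and passed 1.5-fold only at 120 hr, a call that was lost without the second 0 hr array (-0.57), without background subtraction (-0.58) and in the deposited normalized values (-0.30).

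Trp53inp1 and Bbc3 had their lowest level at 24 hr. Trp53inp1, a p53 target whose product takes part in cell death and autophagy, was at 1.66, 1.71 and 1.85 at 0 hr and at 0.45, 0.41 and 0.66 at 24 hr. At 48 hr it was back at 1.32, 1.23 and 1.24, and at 120 hr its values (1.71, 1.41 and 1.36) overlapped with those of 0 hr. The changes were -1.23 ± 0.10 at 24 hr and -0.25 ± 0.10 at 120 hr (adjusted p = 9.25e-08 and 0.0632). Its level rose from 24 to 48 hr by 0.76 ± 0.10.

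Bbc3, which codes for the death-promoting protein Puma, was at 0.47, 0.53 and 0.39 at 0 hr and at -0.56, -0.48 and -0.26 at 24 hr. At 48 hr it had passed its starting level, with 0.70, 0.84 and 0.95, and at 120 hr it was at 1.44, 1.37 and 1.37. No later group overlapped with 0 hr, but the direction turned, from -0.90 ± 0.08 at 24 hr to 0.81 ± 0.08 by 96 hr and 0.93 ± 0.08 by 120 hr (adjusted p = 1.58e-07, 1.71e-07 and 2.4e-08). Bbc3 was called in both directions within the late arrays, the only one of the 9 genes to be so.

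Mdm2 rose late and with much scatter. Its 0 hr arrays were at -0.49, -0.34 and 0.68, the 24 hr arrays at -0.04, 0.32 and -0.18, and the 48 hr arrays at 0.54, 1.23 and 1.04. At 96 hr it was at 0.79, 1.61 and 1.51, and at 120 hr 2 arrays gave 1.00 and 1.78 and the spot of the other was an outlier. The groups of 96 and 120 hr lay above all 0 hr arrays, those of 24, 48 and 72 hr overlapped with them. The rise was 0.99 ± 0.32 at 48 hr, 1.36 ± 0.32 by 96 hr and 1.44 ± 0.36 by 120 hr (adjusted p = 0.0275, 0.0028 and 0.0037). The probe is dim on this design, and its Cy3 signal (553 to 1056) exceeded that of 95% of the negative controls on 16 of 18 arrays. The 48 hr call was lost without the first or second 0 hr array (0.77 and 0.85) and without 48 hr array 2 or 3 (0.84 and 0.94), and the 120 hr call without the second array of that time (1.05), whereas without 0 hr array 3 or the first 72 hr array a call at 72 hr was gained (1.17 and 1.07), as it was with the replicate block (0.81) and in the deposited normalized values (0.89, adjusted p = 0.0472). The 48 hr call was also lost with median centring (0.81, adjusted p = 0.0785), with the error variance of 500 genes of like intensity (adjusted p = 0.0916) and without background subtraction (0.42), where the rises of 96 and 120 hr were 0.64 and 0.65 and still called.

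**Figure D2:**
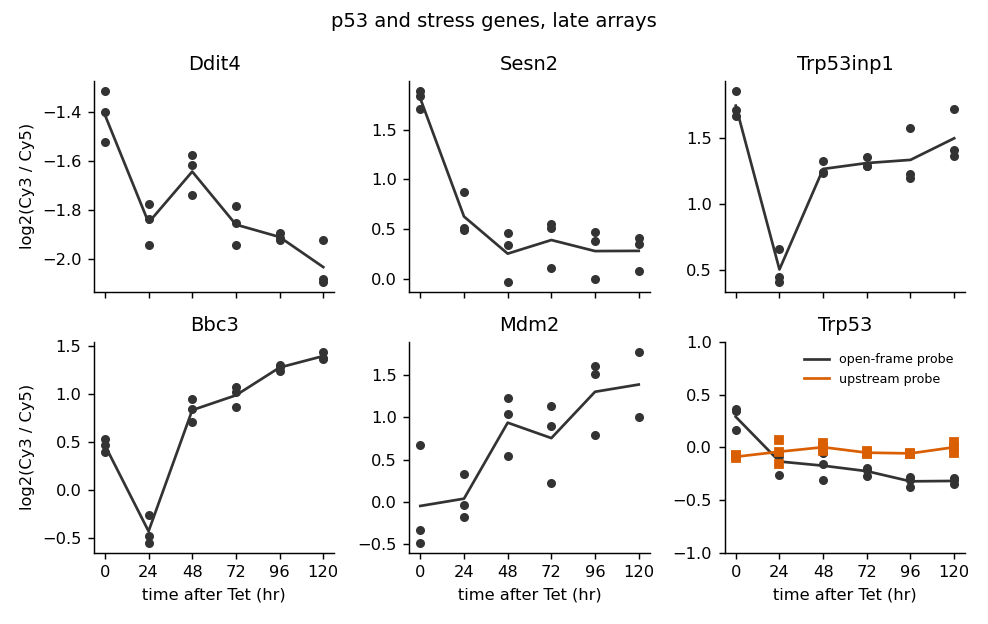
log2(Cy3/Cy5) of Ddit4, Sesn2, Trp53inp1, Bbc3, Mdm2 and both Trp53 probes on the late arrays against the time after Tet in hr, with points for single arrays and lines through the means, and a scale of its own for each gene. Trp53inp1 and Bbc3 are lowest at 24 hr (0.41 to 0.66 and -0.56 to -0.26), and the upstream Trp53 probe stays between -0.15 and 0.07.

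Trp53 was read by 2 probes, which are shown because they gave different changes.
Open-frame Trp53 probe: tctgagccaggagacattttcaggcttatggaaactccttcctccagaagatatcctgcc
Upstream Trp53 probe: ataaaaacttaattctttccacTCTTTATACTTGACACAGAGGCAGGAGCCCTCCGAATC
The open-frame probe has no stop codon in 2 of its 3 reading frames. The upstream probe has one in each frame, and its last 38 bases, in capitals, match the RefSeq sequence that begins 250 bases before the Trp53 start on chr11 (plus strand, chr11:69580109-69580358) with 1 mismatch, so that this part lies before the annotated start. The open-frame probe was the brighter of both on the late arrays, and the upstream probe on the early and media arrays.

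With the open-frame probe, Trp53 was at 0.16, 0.34 and 0.37 at 0 hr and at -0.31, -0.35 and -0.29 at 120 hr of the late arrays. Arrays of every later time lay below those of 0 hr, with a change of -0.42 ± 0.07 at 24 hr and of -0.61 ± 0.07 both at 96 and at 120 hr (adjusted p = 0.000251, 2.18e-06 and 1.99e-06), the last 2 just past 1.5-fold. The upstream probe changed by 0.03 to 0.09 and was called at no time. Both probes are dim: the Cy3 signal of the open-frame probe was 836 to 870 at 0 hr and 612 to 807 later, while the level that 95% of the negative controls stayed under moved in the same direction, from 627 to 653 at 0 hr to 506 to 571 later, and the part of that shift in the Trp53 change was not tested. The call at 96 hr was lost without 0 hr array 3 (-0.57) or the second 96 hr array (-0.58), and at 120 hr without 0 hr array 2 (-0.58) or 3 (-0.57). Both calls were also lost without background subtraction (-0.29 and -0.28) and with a correction for bleaching of Cy5 (-0.47 and -0.51). On the early arrays the open-frame probe changed by -0.39 ± 0.14 at 24 hr and the upstream probe by 0.09 ± 0.10, and neither was called.

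In the Cy5 channel of the late arrays, which holds the same reference RNA throughout, the 9 genes moved by -0.30 to 0.28 after scaling, and their changes in Cy3 alone at 120 hr were -2.50 for Gadd45a, 3.76 for Gadd45b, 3.34 for Gadd45g and -1.78 for Sesn2. In Cy3 alone the calls of Trp53 were lost (-0.44 and -0.40 at 96 and 120 hr), those of Ddit4 reached from 72 to 120 hr (-0.75 to -0.97), and Trp53inp1 was also called at 96 hr (-0.59).

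On the early arrays, 4 of the 9 genes passed the F test, all with their largest change upwards, where 5.26% of 39038 genes passed in either direction and 3.3% upwards. At 3 hr none of the 9 was called by limma, as was none of all genes, 1 of the 9 had an unadjusted p below 0.05, and the test with the error variance of 500 genes called 0, as it did at 6, 12 and 24 hr. At 6 hr 2 were called, both as higher (2.17% of all genes either way, 2.07% as higher). Ddit4 alone was called at 12 hr (0.597% either way, 0.215% as higher), and 5 genes at 24 hr, all as higher (8.81% either way, 6.9% as higher). In Cy3 alone none was called at 6 hr (0.0231% of all genes), 3 were at 12 hr (1.74%) and 2 by 24 hr (5.08%).

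Gadd45g rose on the early arrays in the sample channel. Its ratio was -0.64 and -0.84 on the 0 hr arrays and between -0.82 and -0.60 on those of 3 and 6 hr, and it reached -0.24 and 0.22 after 12 hr and 0.75 and 0.47 after 24 hr. The Cy3 signal was 3020 and 2770 at 0 hr and 7951 and 8587 at 24 hr, while Cy5 was 3351 and 5084 at 0 hr and 3713 and 4591 at 24 hr. The values of 12 and 24 hr lay above all earlier ones. The change at 24 hr was 1.35 ± 0.16 (2.55-fold, adjusted p = 0.000963), and 1.58 in Cy3 alone, and at 12 hr it was 0.73 ± 0.16 (adjusted p = 0.0779), and 0.81 in Cy3 alone, where it was called.

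Ddit4 rose in the ratio by more than in Cy3. The ratio was -1.11 and -1.60 on the 0 hr arrays and -1.69 and -1.34 on those of 3 hr. It was 0.47 and 0.33 after 6 hr, -0.09 and 0.61 after 12 hr, and 0.77 and 1.44 after 24 hr, so that the arrays from 6 hr on lay above those of 0 and 3 hr. The rise was 1.75 ± 0.27 at 6 hr, 1.62 ± 0.27 by 12 hr and 2.46 ± 0.27 by 24 hr (adjusted p = 0.03, 0.0374 and 0.000757). Its Cy3 signal was 2850 and 2398 at 0 hr, stood at 3336 and 2471 after 6 hr and reached 5701 and 6093 after 24 hr. The Cy5 signal, from the same reference RNA on every array, fell from 4220 and 7080 at 0 hr to 2071 and 2014 at 6 hr and 2709 and 1909 at 24 hr. In Cy3 alone the change was 0.24 at 6 hr, 0.89 by 12 hr and 1.21 by 24 hr, and the last 2 were called (adjusted p = 0.0426 and 0.00564).

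The Gadd45b ratio rose from -0.10 and -0.14 at 0 hr to 1.72 and 1.84 at 6 hr and 1.23 and 1.95 at 24 hr, with changes of 1.90 ± 0.30 and 1.71 ± 0.30 (adjusted p = 0.0316 and 0.00647). Its Cy3 signal stayed at 1324 to 1593 on all 10 arrays. Its Cy5 signal fell from 1281 and 1635 at 0 hr to 667 and 665 at 6 hr and 762 and 593 at 24 hr. In Cy3 alone the change was 0.35 at 6 hr and 0.10 at 24 hr (adjusted p = 0.137 and 0.332), and at 12 hr, where the adjusted p was 0.0369, it was 0.30 and below 1.5-fold, so that Gadd45b was called at no time in the sample channel of these arrays.

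**Figure D3:**
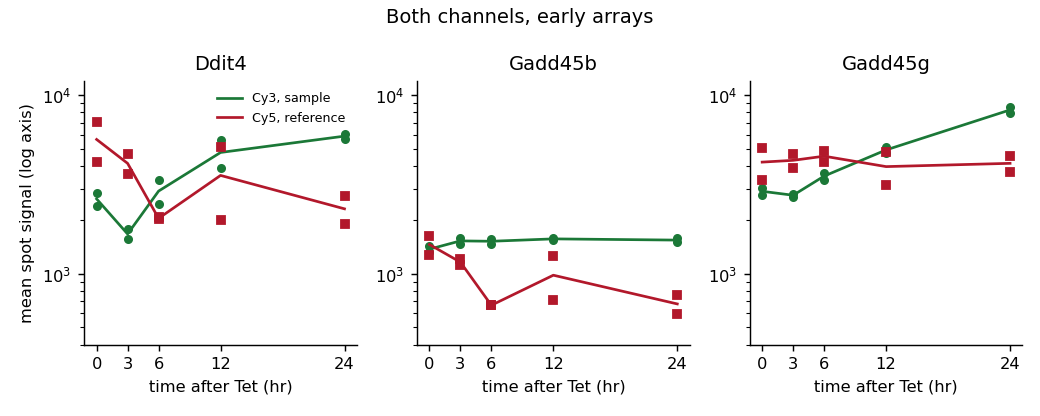
Mean spot signal of Ddit4, Gadd45b and Gadd45g on the early arrays, on a log axis in intensity units, against the time after Tet in hr, with Cy3 (sample) as circles, Cy5 (reference) as squares and lines through the means. Gadd45b Cy3 stays at 1324 to 1593 while its Cy5 drops to 593 to 762 at 24 hr, and Gadd45g Cy3 rises from 2770 and 3020 to 7951 and 8587.

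The other early calls were smaller. Mdm2 was at 1.69 and 1.503 at 0 hr and at 2.20 and 2.58 at 24 hr, a change of 0.79 ± 0.14 (adjusted p = 0.00647), but 0.21 in Cy3 alone, and its second probe went from 0.79 and 0.90 to 0.60 and 0.63 (-0.23 ± 0.10, adjusted p = 0.118), and by 0.24 in Cy3 alone. Trp53inp1 was at 0.91 and 0.90 at 0 hr and at 1.47 and 1.76 at 24 hr, a change of 0.71 ± 0.16 (adjusted p = 0.0169), 0.50 in Cy3 alone, with -0.11 ± 0.13 on its dimmer second probe, and 0.16 in Cy3 alone. For both genes the 2 probes thus differed in sign at 24 hr in the ratio and had the same sign in Cy3 alone, where none of the 4 was called. Gadd45a, Sesn2 and Bbc3 were called at no early time in the ratio, with changes at 24 hr of 0.09 ± 0.11, 0.10 ± 0.11 and -0.27 ± 0.14. In Cy3 alone, Gadd45a was called as higher at 12 hr (0.69, adjusted p = 0.00238).

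With 2 arrays a time, the early calls leaned on single arrays. At 6 hr the Ddit4 call was lost without either 0 hr array (2.00 and 1.51) or either 6 hr array (1.69 and 1.82), and at 12 hr without either 0 hr array (1.86 and 1.37), either 3 hr array (1.62) or the second 12 hr array (1.27). The Gadd45b call at 6 hr was lost without either 0 hr array (1.92 and 1.88), either 3 hr array (1.90) or the second 6 hr array (1.84), and at 24 hr without either 0 hr array (1.74 and 1.69). At 24 hr the Mdm2 call was lost without the second 0 hr array (0.70), and that of Trp53inp1 without either 0 hr array (0.72 and 0.71) or the second 24 hr array (0.57). Without the first 12 hr array, Gadd45b and Gadd45g were called at 12 hr (1.54 and 0.96). With all arrays their changes at 12 hr were 1.03 and 0.73, and the lowest over the settings tried were 0.002 and 0.50. The calls of Ddit4 and Gadd45g at 24 hr were kept without any 1 array, but both were lost with the error variance of 500 genes (adjusted p = 0.17 and 0.178).

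Other settings gave smaller early rises for several of these genes. In the deposited normalized values Ddit4 rose by 0.43 at 6 hr, 0.71 by 12 hr and 0.84 by 24 hr (adjusted p = 0.0643 for the last) and was called at no time, and with the correction for bleaching of Cy5 it rose by 0.39, 0.63 and 0.79, the last being called (adjusted p = 0.037). Gadd45b at 24 hr was at -0.12 and 0.17 in these settings, and Trp53inp1 at 0.43 and 0.48, neither of them called. The Gadd45g rise at 24 hr was 1.32 and 1.44 and was called in both. Without background subtraction the Mdm2 rise at 24 hr was 0.42 and not called.

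The change over the first 24 hr was measured in both time courses, and 19163 probes of identical sequence allow a test of the difference. Of the 9 genes, 6 differed between the experiments in the ratio, against 14.4% of all these probes. Ddit4 rose by 2.46 on the early arrays and changed by -0.44 on the late, a difference of 2.90 ± 0.26 (95% interval 2.33 to 3.46, adjusted p = 6.63e-05), and of 1.69 in Cy3 alone (adjusted p = 0.000304). Trp53inp1 rose by 0.71 and fell by 1.23, a difference of 1.95 ± 0.16 (adjusted p = 4.79e-05).

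Sesn2 and Gadd45a fell on the late arrays at 24 hr and were not called on the early (0.10 and 0.09), and the differences were 1.29 ± 0.18 and 0.84 ± 0.13 (adjusted p = 0.000583 and 0.00109). For Bbc3 the difference was 0.63 ± 0.15 in the ratio (adjusted p = 0.012) and 0.60 in Cy3 alone (adjusted p = 0.0931), and the call was lost without the second early 0 hr array (0.59), the first early 24 hr array (0.54) or the first late 24 hr array (0.57), without background subtraction (0.50) and in the deposited normalized values (0.40). Gadd45b rose by 1.01 ± 0.23 less on the early arrays in the ratio (adjusted p = 0.0108), and in Cy3 alone, scaled over the shared probes, it changed by 0.08 in the early course and by 3.13 in the late one, a difference of -3.05 (adjusted p = 3.82e-06). Gadd45g, with 1.35 and 1.66, differed by -0.31 (95% interval -0.67 to 0.05, adjusted p = 0.204), the interval leaving room for a difference of the size of 1.5-fold. The difference for Mdm2 was 0.71 (95% interval -0.18 to 1.59). The experiments were done on different array designs, and design and experiment cannot be told apart.

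**Figure D4:**
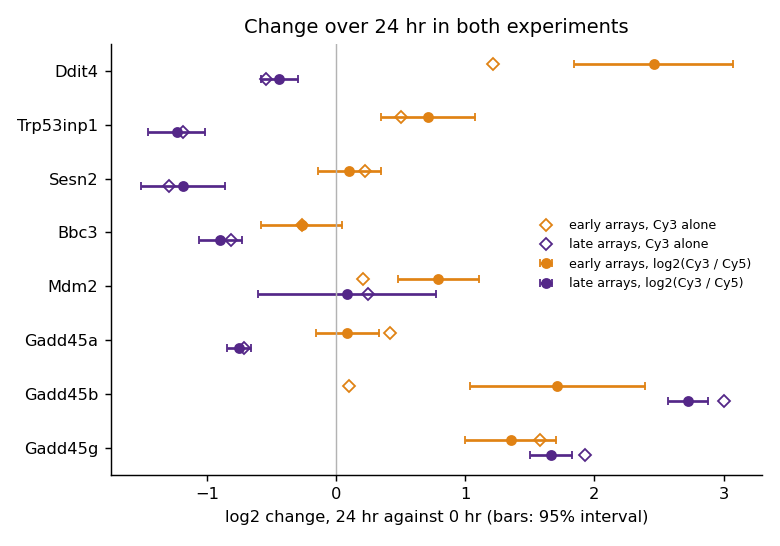
log2 change from 0 to 24 hr of Tet for 8 genes on the early and late arrays, with filled circles for log2(Cy3/Cy5) with its 95% interval and open diamonds for Cy3 alone. Ddit4 and Trp53inp1 lie above 0 on the early and below 0 on the late arrays, and the early Gadd45b diamond (0.10) lies near 0 where the late one is at 3.01.

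In the 4 lines of the media arrays, 2 of the 9 genes passed the F test, both upwards, where 8% of 37715 genes passed in either direction and 5.71% upwards. Without LIF, none of the 9 was called against LIF by limma (1.02% of all genes), 2 had an unadjusted p below 0.05, and the test with the error variance of 500 genes called 0. With RA against LIF 1 was called, as higher (5.86% of all genes, 4.65% as higher), and with RA against no LIF 2, both as higher (5.68%, 4.05% as higher). Over the media 4 of 8 ES cell markers fell, and 4 of 9 trophoblast, 3 of 4 primitive endoderm, 3 of 6 feeder and 3 of 3 RA response markers rose, and the part of such cells in the results was not tested.

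Gadd45b rose on RA in every line. In LIF it was at -0.58 in MG1.19, -1.44 in the episomal clone, -0.76 in ES 129.3 and -0.99 in the integrated clone. With RA the values were 0.28, 0.39, 0.29 and 0.57, all above every value in LIF or without LIF. The change on RA was 1.32 ± 0.15 against LIF and 0.93 ± 0.15 against no LIF (adjusted p = 0.000846 and 0.00418), higher in 4 of 4 lines both times. With the error variance of 500 genes the call against no LIF was lost (adjusted p = 0.0575). Without LIF it was 0.39 ± 0.15 higher than with LIF, also in 4 of 4 lines, but with an adjusted p of 0.261.

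Gadd45g was at -1.48 in MG1.19, -2.25 in the episomal clone, -0.59 in ES 129.3 and -0.82 in the integrated clone in LIF, and at 0.12, -0.08, 0.79 and 0.01 with RA. The values with RA lay above all values in LIF. The change of 1.49 ± 0.43 had an adjusted p of 0.0524 and was not called, but it was called in Cy3 alone (1.64, adjusted p = 0.0285), without the integrated clone (1.72, adjusted p = 0.0257) and in the 2 lines without a transgene alone (1.49, adjusted p = 0.0111). Against no LIF it was 1.23 ± 0.43 (adjusted p = 0.102), and 1.80 and called without the integrated clone. Over the settings tried, this change ranged from 0.85 to 2.15. The highest value was that of the 2 lines without a transgene alone, where it was called (adjusted p = 0.00666). Without LIF the lines parted: Gadd45g went down in MG1.19 (-0.31) and ES 129.3 (-1.01) and up in the episomal (1.06) and integrated clones (1.30).

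Mdm2 was lower without LIF than with LIF in 4 of 4 lines (-0.45 ± 0.17, adjusted p = 0.269) and higher with RA than without LIF in 4 of 4 (0.76 ± 0.17, adjusted p = 0.0206), although the values of the lines overlapped. Its second probe gave 0.66 ± 0.10 (adjusted p = 0.00367). The RA call of the first probe was lost without MG1.19 (0.66), the episomal clone (0.74) or ES 129.3 (0.64), without background subtraction (0.52), with the line as a random block (adjusted p = 0.0766) and with the error variance of 500 genes (adjusted p = 0.135). In each medium and on both probes Mdm2 was higher in the clones than in the lines without a transgene set beside them, on the first probe by 0.18 to 0.51 in the episomal clone against MG1.19 and by 0.32 to 1.38 in the integrated clone against ES 129.3. These are differences between single arrays and were not tested.

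**Figure D5:**
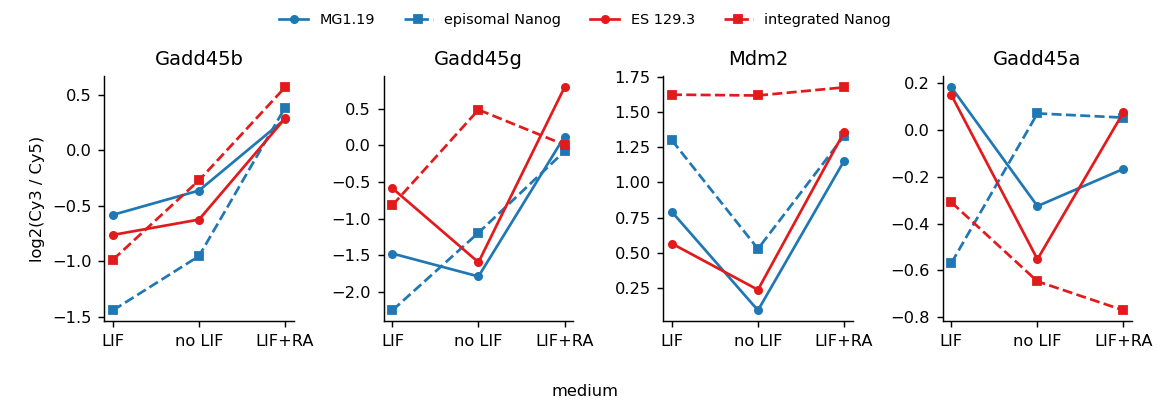
log2(Cy3/Cy5) of Gadd45b, Gadd45g, Mdm2 and Gadd45a in 4 ES lines by medium (LIF, no LIF, LIF with RA), with 1 array a point, circles and solid lines for the lines without a transgene, squares and dashed lines for the Nanog clones, and a scale of its own for each gene. Gadd45b rises in each line to 0.28 to 0.57 with RA, while Gadd45g without LIF is at 0.49 in the integrated clone and at -1.60 in ES 129.3.

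No other gene was called between media. Gadd45a changed by -0.07 ± 0.21 on RA against LIF (95% interval -0.54 to 0.41), with values between -0.77 and 0.18 on all 12 arrays and no shared direction among the lines. Sesn2 changed by -0.06 ± 0.05 (95% interval -0.18 to 0.07), which leaves out a change of 1.5-fold. Ddit4 changed by 0.35 ± 0.19, Trp53inp1 by 0.31 ± 0.11 and Bbc3 by -0.12 ± 0.16. The second Trp53inp1 probe changed by -0.01 ± 0.07 on RA against LIF and by -0.20 ± 0.07 against no LIF, where the first gave 0.28 ± 0.11, so that the 2 probes differed in sign. Trp53 changed by -0.03 ± 0.03 on the upstream probe and by -0.17 ± 0.05 on the open-frame probe, lower in 4 of 4 lines on the latter (adjusted p = 0.071). The changes of Ddit4 ranged from -0.03 in ES 129.3 to 0.93 in the integrated clone.

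Other genes of these pathways were counted from lists of known genes. The counts over all times or media are to be read against the shares of all genes called, 14.2% as higher and 10.4% as lower on the late arrays, 3.3% and 1.96% on the early arrays, and 5.71% and 2.29% on the media arrays. Of 36 other p53 target genes, 29 were measured on the late arrays, and over all times 14 were called as higher and 7 as lower. At 24 hr 4 were higher and 7 lower (3.95% and 3.62% of all genes), and at 120 hr 14 were higher and 2 lower (12.1% and 8.52% of all genes), with a median change of -0.25 at 24 hr and 0.17 at 120 hr. Among the highest rises were those of Perp (3.39), a junction protein of epithelia, and of Thbs1 (3.09), which acts at the cell surface and matrix. The largest falls were those of Gdf15 (-2.03), a secreted stress cytokine, Pidd1 (-1.21) and Zmat3 (-1.10). On the media arrays 10 of 31 were called as higher and 2 as lower, with Thbs1 (1.83) and Plk2 (1.36) among the highest, and on the early arrays 2 of 31 as higher and 2 as lower, with Cdkn1a, the cell cycle inhibitor p21 (1.57, and 0.63 in Cy3 alone) and Rchy1 (1.35, and -0.21 in Cy3 alone) as higher, and Ei24 (-1.04) and Tigar as lower.

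Of 17 measured regulators and relatives of p53, 7 fell and 1 rose on the late arrays (10.4% and 14.2% of all genes). Pml, which gathers p53 in nuclear bodies, fell by 3.08, Usp7, a protease that spares Mdm2 and p53 from degradation, fell by 1.81, and Chek1, a kinase of the DNA damage checkpoint, fell by 1.40. Mdm4, the partner of Mdm2, rose by 0.86. On the early arrays 2 of 17 were higher and 2 lower, and in Cy3 alone 0 and 3. Cdkn2a (1.02, and -0.39 in Cy3 alone) and Mdm4 (0.69, and 0.28 in Cy3 alone) were called as higher in the ratio alone. Usp7 (-1.26, and -1.01 in Cy3 alone) and Sirt1 (-0.68, and -1.07 in Cy3 alone) were called as lower in both. On the media arrays 1 was higher and 3 lower.

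The integrated stress response raises genes of amino acid supply through the factor Atf4, of which Sesn2 and Ddit4 are known targets. Of its 22 listed genes measured on the late arrays, 15 were called with the largest change downwards and 3 upwards (10.4% and 14.2% of all genes), and at 24 hr 17 were lower and 1 higher (3.62% and 3.95%), with a median change of -1.24 where that of all genes was -0.01. Trib3 fell by 3.43, Psat1, an enzyme of serine synthesis, by 2.74 and Atf5 by 2.71. Cebpb and Atf3 were lower at 24 hr (-0.77 and -0.69) and higher at 120 hr (2.13 and 2.84), as was Bbc3, whereas Hspa5, a chaperone of the endoplasmic reticulum, was higher at all 5 times, up to 1.36. The early arrays did not show this fall at 24 hr, where 2 of 23 were higher and 1 lower (6.9% and 1.92% of all genes), with a median change of 0.08. Over the early times 1 of 23 was called as higher (Cebpb, 1.45) and 1 as lower (Slc3a2, -0.71, and -0.36 in Cy3 alone, where it was not called), and on the media arrays 4 as higher and 1 as lower.

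Of 16 measured genes of hypoxia and of the Tsc-mTOR pathway around Ddit4, 4 rose and 3 fell on the late arrays (14.2% and 10.4% of all genes). Slc2a1, a glucose transporter, rose by up to 3.49, Hif1a by 1.40 and P4ha1 by 0.69, whereas Txnip (-2.53), Hk2 (-0.97) and Mtor (-0.61) fell. On the early arrays 3 of 18 were higher and 1 lower, in Cy3 alone 2 and 1, and on the media arrays 5 were higher and 2 lower. Of 10 measured partners of the Gadd45 proteins, 4 rose and 2 fell on the late arrays, among them Mapk14, the p38 kinase (0.69), and Ercc5 (0.90), a nuclease of DNA repair, as higher, and Npm1 (-1.35) and Ccnb1 (-0.62) as lower. Of 11 partners none was called over the early times by limma's F test with the 1.5-fold limit, where 2 had an unadjusted p below 0.05, but Map2k4, a kinase upstream of Jnk and p38, was called as higher at 24 hr (0.79, and 0.09 in Cy3 alone), where 6.9% of all genes were. On the media arrays none was called either, with 8 at an unadjusted p below 0.05. There Pcna, Ercc5, Mapk14 and Map2k4 had an adjusted p below 0.05 in the F test (0.011, 0.0285, 0.0295 and 0.0351), with largest changes of -0.47, 0.52, 0.42 and 0.55, under 1.5-fold.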

How the data were processed

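Samples were grouped by their labels. For each array the authors deposited Agilent Feature Extraction A.7.5.1 output with the mean signal and local background of each spot as intensity values. They also deposited, per design, normalized log10 values, where 1 column was treated as score values because it holds a code for missing values, set to missing here. These tables served as an alternative. 0 columns of per-sample values were left unused.

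Mean signals were corrected by normexp with an offset of 50, spots flagged as outliers were set to missing, dyes were balanced by loess, control spots were dropped and spots of a probe averaged (limma 3.58.1, R 4.3.3, data.table version 1.17.8). Cy3 alone was quantile-normalized. Times were compared with 0 hr, media with the line as a block, and 24 hr changes by an interaction term, by lmFit and eBayes, two-sided. Brightest probes represent genes. All members are named, and from other lists up to 3 called genes a direction and experiment, of which 1 is not reported here. On simulated data, 84, 99 and 92 of 100 genes changed by 1 (log2) were called for 24 hr of the early arrays (39038 genes), 120 hr of the late arrays (20710 genes) and RA against LIF (37715 genes), with 4, 2 and 2 false calls. Members and lists were chosen with earlier results of these data known. Probe names came from RefSeq (GRCm38.p6) accessions, identical probes and the study's gene tables. No dyes were swapped, so dye effects drop out only of differences between arrays, and the number of arrays limits the precision. For the late arrays a growth protocol in the labels names a different construct, and the sample titles were followed.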

Additional observations from a re-analysis of the deposited data

Results flagged for a closer look

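The change from 0 to 24 hr of Tet differed between the early and late arrays, by a test of the difference itself, for 6 genes, given here as early minus late in log2 units. The difference was 2.90 for Ddit4, 1.95 for Trp53inp1, 1.29 for Sesn2, 0.84 for Gadd45a, 0.63 for Bbc3 and -1.01 for Gadd45b. In Cy3 alone, in the same order, it was 1.69, 1.69, 1.53, 1.13, 0.60 and -3.05, and that of Bbc3 was not called (adjusted p = 0.0931). Over the settings tried, the difference ranged from 1.15 to 3.23 for Ddit4 and from -3.05 to -0.65 for Gadd45b (highest adjusted p = 0.00384 and 0.0486).

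On the media arrays, without LIF 2 genes had higher values than with LIF in both Nanog clones and lower values in both lines without a transgene. Neither gene was called without LIF over the 4 lines, and the differences between clones and lines were not tested. Each line has 1 array per medium, and how many of all genes split in this way was not counted. Gadd45g changed by 1.18 in the mean of the clones and by -0.66 in the mean of MG1.19 and ES 129.3. Bbc3 changed by 0.18 in the clones and by -0.31 in the lines without a transgene.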

How the results depend on the processing

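The values below count how many of the 9 genes were called. On the late arrays the counts stayed within 1.5 times under 29 or 30 of 30 alternatives at each time, the exception being a 2-fold threshold at 120 hr (5 in place of 8). The test of the 24 hr change between experiments called 5 or 6 genes under 17 alternatives. No background subtraction gave, on the early arrays, 2 over all times in place of 4, 0 at 6 hr in place of 2 and 0 at 12 hr in place of 1, as did median centring (2, 0 and 0). Cy3 alone gave 0 at 6 hr, 3 at 12 hr and, in place of 5, 2 at 24 hr, the scanner's processed signals 0 at 12 hr, the deposited normalized values 2 over all times, 0 at 6 hr, 0 at 12 hr and, of 8 genes with values, 1 at 24 hr, and a correction for bleaching of Cy5 0 at 6 and 12 hr and 3 at 24 hr. The error variance of 500 genes of like intensity gave 0 over all times and 0 at 6, 12 and 24 hr, and a 2-fold threshold 3 at 24 hr. Leaving out 1 array each gave 2 to 5 over all early times, 0 to 2 at 6 hr, 0 to 3 at 12 hr, and 2 to 5 for 24 hr. The early Gadd45b change at 24 hr turned to -0.12 in the deposited normalized values. The cause was not tested.

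On the media arrays the counts over all media were 1 in place of 2 without background subtraction, with the error variance of 500 genes, with the line as a random block and at 2-fold. For RA against LIF they were 2 in place of 1 with median centring, Cy3 alone, the bleaching correction, the random block and the 2 lines without a transgene alone. For RA against no LIF they were 1 in place of 2 without background subtraction and with the random block, and 0 with the error variance and at 2-fold. Leaving out 1 line each gave 1 to 3 over all media, 1 to 2 for RA against LIF and 1 to 3 for RA against no LIF.

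Replicate numbers were not taken as pairs, since the labels do not say what they stand for. Residuals of same-numbered arrays of different times correlated by -0.143 to 0.341 on the early arrays (mean 0.113). On the late arrays they correlated by -0.431 to 0.754 (mean 0.154). With the replicate block, counts on the early arrays were 4 over all times and 0, 2, 1 and 5 at 3, 6, 12 and 24 hr, and on the late arrays 9 over all times and 6, 5, 5, 7 and 8 at the 5 later times, where Mdm2 at 72 hr was added (0.81, adjusted p = 0.00902). Scan day could not be fitted: early and late arrays were each read on 1 day, and the 2 days of the media arrays each hold a pair of lines.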
